A study of Mus musculus with 2 samples.

Results

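*Pi16* encodes peptidase inhibitor 16, a secreted or membrane-anchored glycoprotein of the CAP superfamily, a group of cysteine-rich proteins found from plants to vertebrates. In connective tissue the gene is best known as a marker of adventitial fibroblasts, the cells that lie around vessels and in fascia and that share *Dpp4* and *Sema3c*. Neutrophils are short-lived granulocytes that mature in the marrow. There they fill their secondary granules (*Camp*, *Ngp*, *Ltf*) and later switch on surface receptors for mobilisation and chemotaxis (*Cxcr2*, *Csf3r*). Described here is the *Pi16* row, 1 of 32285 genes in the table, in both cell classes. The gene was chosen on the values measured in these same libraries, so its levels are a description and no test is attached to them.

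The gene (ENSMUSG00000024011) lies on the plus strand of chromosome 17 at 29317680 to 29330593 (GRCm38) and has 6 annotated transcripts, 5 of them protein coding, with 6 different 3′ ends between 29325928 and 29330593. Reads counted from the 3′ end were summed per gene, so isoforms cannot be told apart here. An antisense gene inside *Pi16*, *Gm46603*, held 7 unique molecular identifiers (UMIs) in intact fibroblasts against 5499 for *Pi16*.

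Cells came from Clec3b.creERT2; Ai14.R26.tdTomato mice, in which tamoxifen makes cells that use *Clec3b*, and their progeny, permanently fluorescent. Tamoxifen was given 2 weeks before surgery, surgery was at 6 weeks of age, and the tissue was taken 3 weeks after it. One library was made from the unfractured femoral diaphyses with their muscle (intact) and one from the femoral fracture calluses (callus), in both cases with the tissue of 3 littermates pooled, digested and sorted for tdTomato. The study names 3 littermate male mice as the source of the calluses and the intact diaphyses, which were pooled separately. It does not state that each mouse gave both. With 1 library per condition there is no replicate, no test between conditions was possible, and all intervals below are exact, at 95%, and cover counting error only. The study treated the blood cells in this sort as artifacts of flow cytometry and left them out, so the neutrophils and monocytes described here carry the label of the tissue and not necessarily that of the *Clec3b* lineage. The mice are labelled male, but *Xist* was found in 97.5% of 201 intact fibroblasts of 5000 or more UMIs and in 98.2% of 165 such callus cells, and 4 Y-linked genes held 1 UMI in the intact and 0 UMIs in the callus library.

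After the cell filter, 1207 intact cells (median 4939 UMIs) and 3295 callus cells (median 6843 UMIs) remained, of which 470 and 822 carried at least 1 *Pi16* UMI. They held 5900 and 3636 *Pi16* UMIs. 1 barcode sequence occurred in both libraries. Cell types were assigned by gates on marker genes that do not include *Pi16*. Cells of the neutrophil gate (*S100a8* and *S100a9* together at least 3% of UMIs) carried *Ly6g*, a neutrophil surface antigen that the gate did not use, in 74.8% of intact and 76.1% of callus cells. *Clec3b*, which the fibroblast gate did not use either, was at 1469 and 1256 UMIs per 1000000 UMIs (CPM) in fibroblasts.

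Fibroblasts held most of the transcript and less of the positive cells. The 289 intact fibroblasts stood at 2682 CPM (2611 to 2754) and the 219 callus fibroblasts at 1413 CPM (1359 to 1468). That was 93.2% of all *Pi16* UMIs in the intact and 72.3% in the callus library, but only 50.9% and 20.8% of the cells with a *Pi16* UMI. Neutrophils made up 37.2% of the positive cells in the intact library and 51.9% in the callus library, with 5.47% and 19.9% of the UMIs. A positive callus cell was therefore more often a neutrophil than a fibroblast. These shares depend on how many cells of each type were sequenced. Fibroblasts made up 23.9% of intact and 6.65% of callus cells, and neutrophils 25.7% and 23.6%.

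**Figure D1:**
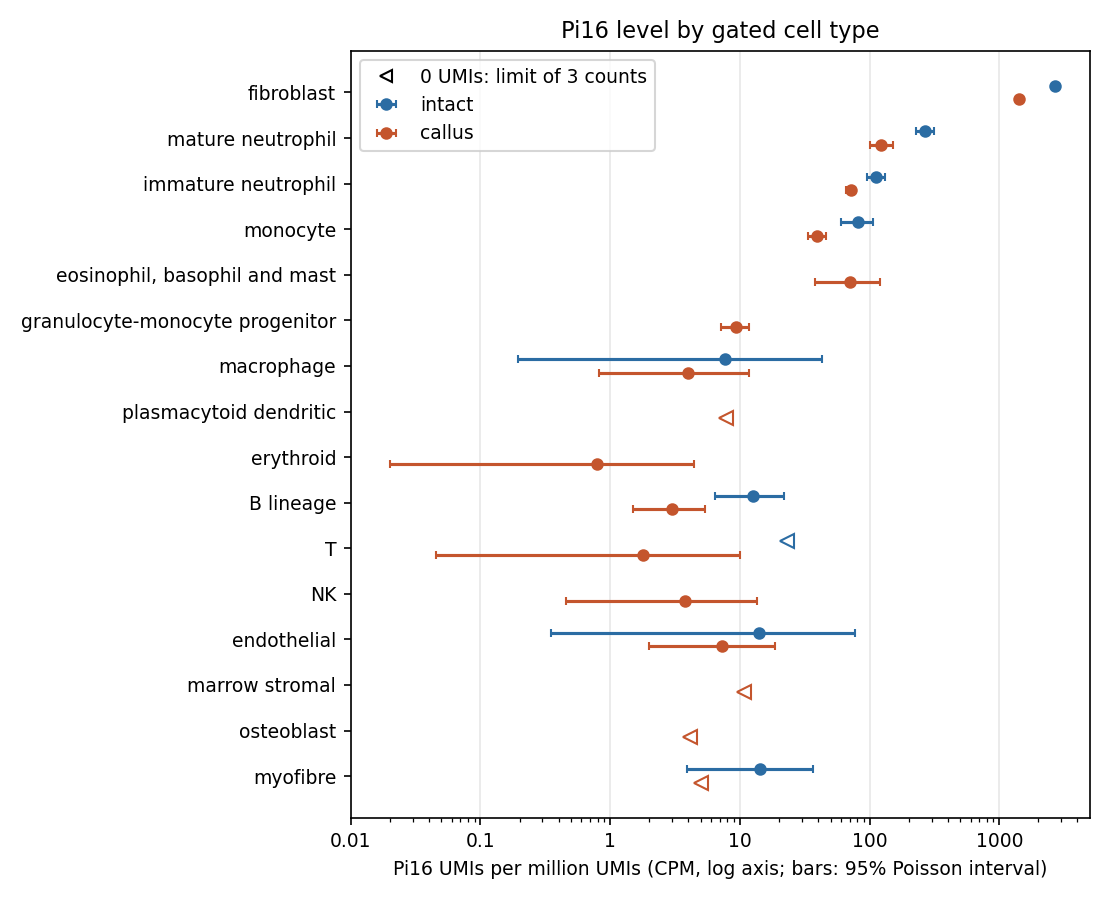
*Pi16* CPM on a log axis, by gated cell type, for groups of at least 20 cells in the intact (blue) and callus (orange) libraries. Points are summed UMIs with exact 95% Poisson intervals, and open triangles are groups with 0 UMIs drawn at the limit of 3 counts. Fibroblasts, neutrophils and monocytes lie above the lymphoid, endothelial and marrow stromal groups in both libraries where these have at least 20 cells.

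Among blood cells *Pi16* was highest in the myeloid types. Mature neutrophils stood at 266 CPM (226 to 311, 150 cells) in the intact and 123 CPM (100.2 to 150.1, 161 cells) in the callus library. The intact value includes 1 cell with 39 *Pi16* UMIs. Without the cells that held a UMI of the 6 fibroblast gate markers, mature neutrophils stood at 196 CPM (160 to 238, 136 cells) and 120 CPM (95.4 to 148, 149 cells). Immature neutrophils stood at 112 CPM (95.7 to 130.4, 160 cells) and 71.3 CPM (65.8 to 77.1, 618 cells). Monocytes, the circulating precursors of many tissue macrophages, stood at 80.7 CPM (59.7 to 107, 65 cells) and 39.3 CPM (33.6 to 45.7, 416 cells). The order fibroblast, mature neutrophil, immature neutrophil, monocyte was the same in both libraries, and the intervals of immature neutrophils and monocytes overlapped in the intact library only.

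Granulocyte-monocyte progenitors, from which both lineages arise, were lower, at 15.3 CPM (5.63 to 33.4, 16 cells) and 9.28 CPM (7.21 to 11.8, 227 cells). In the callus library, progenitors with under 0.1% of their UMIs in *S100a8* and *S100a9* had 0.232 *Pi16* UMIs per cell (0.164 to 0.318), those with 0.1 to 0.5% had 0.458 (0.229 to 0.820) and those with 0.5 to 3% had 0.487 (0.293 to 0.761). The point values were higher in progenitors that already held neutrophil transcripts, while the intervals of the groups overlapped. A small gate of eosinophils, basophils and mast cells held 13 *Pi16* UMIs in 9 of 24 callus cells, or 70.9 CPM (37.7 to 121), and 1 UMI in 5 intact cells. This gate was led by *Mcpt8*, a basophil protease, with *Ly6g* and *Dcn* both at 0 UMIs in both libraries.

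The other types were close to the floor. B-lineage cells stood at 12.5 CPM (6.47 to 21.9, 271 cells) and 3.01 CPM (1.5 to 5.38, 598 cells), and none of the 12 intact positive cells had more than 1 UMI. Macrophages, which arise in part from monocytes, had 1 UMI in 27 intact and 3 UMIs in 119 callus cells. T cells had 0 UMIs in 25 intact and 1 UMI in 88 callus cells. In the callus library, 42 marrow stromal cells, 34 osteoblasts, 46 plasmacytoid dendritic cells and 214 myofibre fragments held no *Pi16* UMI. The limit of 3 counts lies at 10.8, 4.12, 7.77 and 5.05 CPM in these groups, and the exact intervals reach up to 13.3, 5.06, 9.56 and 6.21 CPM. The callus thus held mesenchymal cells with *Pi16* (the fibroblasts) beside marrow stromal cells and osteoblasts in which it was not detected at this depth.

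Shares of positive cells depend on depth, so each cell was also thinned to 2000 UMIs. Before thinning, 82.7% of intact and 78.1% of callus fibroblasts, 56.5% and 54.8% of neutrophils and 47.7% and 31.7% of monocytes had a *Pi16* UMI, against 4.43% and 1.67% of B-lineage cells. B-lineage cells were taken as a type that should lack the gene, which was not tested. Median depths were 5883 and 8860 UMIs in neutrophils, and 2859 and 3290 in B-lineage cells. After thinning, the shares were 77.6% (72.0 to 82.5) and 68.6% (61.8 to 74.9) in fibroblasts, 24.3% (19.6 to 29.6) and 15.2% (12.7 to 18.0) in neutrophils, 11.1% (4.59 to 21.6) and 8.23% (5.77 to 11.3) in monocytes, and 4.02% (1.94 to 7.26) and 0.708% (0.193 to 1.80) in B-lineage cells. Among intact cells the intervals of monocytes and B-lineage cells overlapped after thinning. Neutrophils and fibroblasts stayed above B-lineage cells in both libraries. Thinning left out 10 intact and 24 callus neutrophils and 26 and 15 fibroblasts.

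Fibroblasts and myeloid cells differed in how the transcript was spread over cells. In fibroblasts the median was 14 UMIs per cell in the intact and 6 in the callus library, the highest cells had 101 and 71, and 171 of 289 and 86 of 219 cells had 10 or more. In immature neutrophils, 64 of 160 intact cells had 0 UMIs, 57 had 1 and 27 had 2. In callus monocytes, 284 of 416 cells had 0 UMIs, 101 had 1, and no cell had more than 4. Leaving aside the few neutrophils with many fibroblast transcripts (described below), *Pi16* was a transcript of a few copies in many myeloid cells and of 10 or more copies in many fibroblasts.

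**Figure D2:**
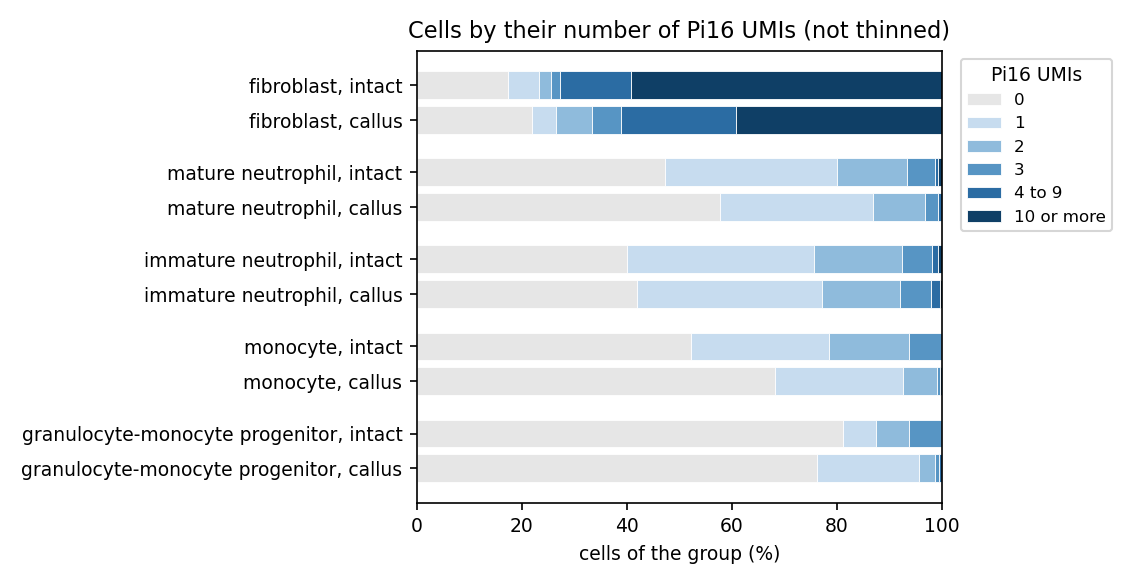
Share of cells (%) by their number of *Pi16* UMIs, not thinned, in 5 gated groups of each library. Cells with 10 or more UMIs make up much of the fibroblast bars (171 of 289 intact, 86 of 219 callus cells) and are nearly absent from the neutrophil, monocyte and progenitor bars.

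Fibroblast transcripts were counted in the same cells. Per 100 UMIs of 9 comparator genes (among them *Dcn*, *Col1a2*, *Igfbp6* and *Mfap5*), fibroblasts held 8.43 *Pi16* UMIs (8.20 to 8.66) in the intact and 3.52 (3.38 to 3.66) in the callus library. Neutrophils held 60.6 (52.6 to 69.7) and 13.2 (12.2 to 14.3), and monocytes 223 (132 to 387) and 89.4 (72.1 to 111). The callus value of neutrophils rests on few cells. Of its 5483 comparator UMIs, 3972 were *Col1a2*, and 13 cells held 5197 UMIs of the 6 fibroblast markers, with up to 3886 in a cell. The interval does not cover this spread between cells. Against *Clec3b*, *Igfbp6*, *Mfap5* and *Fbn1*, the values were 24.9 and 16.2 in fibroblasts, 135 and 192 in neutrophils and 1633 and 1400 in monocytes. No cell type gate used these 4 genes, while *Fbn1* was a marker of the adventitial kind. The monocyte values rest on 2 *Mfap5* and 1 *Fbn1* UMIs in the intact and 9 *Igfbp6* and 3 *Fbn1* UMIs in the callus library. No intervals were set on the values of the 4 genes. The ratio was higher in neutrophils and monocytes than in fibroblasts on both sets. B-lineage cells, with 12 and 11 *Pi16* UMIs, held 7.27 (3.68 to 13.05) and 1.29 (0.643 to 2.32) per 100 comparator UMIs. The callus value is below that of fibroblasts, while the intact interval holds the fibroblast value. On the 4 genes the B-lineage values were 70.6 and 55.0, which is above fibroblasts. None of the 4 genes held more than 8 UMIs in B-lineage cells of either library. The part of free RNA in these ratios was not tested. Most intact comparator UMIs of B-lineage cells were *Dpp4*, which lymphocytes use themselves. *S100a8*, a gene of the neutrophil gate, was found in 34.6% of intact and 58.4% of callus fibroblasts, and its source there was not tested.

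Few neutrophils carried fibroblast transcripts in number. In the intact library 283 of 310 neutrophils had no UMI of the 6 fibroblast markers and held 237 *Pi16* UMIs, or 0.837 per cell. The 25 with 1 to 3 such UMIs held 1.08 per cell. Only 2 cells had more, with 120 and 163 fibroblast UMIs, and they held 59 *Pi16* UMIs, 18.3% of those in the gate. In the callus library, 685 of 779 neutrophils had none and held 0.842 *Pi16* UMIs per cell, 81 with 1 to 3 held 0.827, and 13 with 12 to 3886 held 6.15 per cell and 11.0% of the *Pi16* UMIs. The cells without fibroblast UMIs differ in stage, with 136 of 283 mature in the intact and 149 of 685 in the callus library, and mature cells alone held 0.750 and 0.564 *Pi16* UMIs per cell. In the callus library, cells with 1 to 3 such UMIs did not stand apart from those with none.

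Within neutrophils the result depended on the scale. In CPM, mature cells were 2.37-fold (1.90 to 2.97) above immature cells in the intact and 1.73-fold (1.38 to 2.14) in the callus library, and 2.00-fold (1.53 to 2.61) and 1.78-fold (1.39 to 2.24) without the cells that carried fibroblast UMIs. Of the genes with at least 20 UMIs, 29.9% in the intact and 26.6% in the callus library were at least 1.5-fold higher in mature cells, *Pi16* included. Per cell, intact mature and immature neutrophils both held 1.04 UMIs (ratio 0.996, 0.796 to 1.25), and callus mature cells held 0.615 against 1.01 in immature cells (ratio 0.608, 0.487 to 0.753). The intact mature value includes 1 cell with 39 *Pi16* UMIs. Without the cells that carried fibroblast UMIs, the ratios per cell were 0.817 (0.625 to 1.06) in the intact library, from 0.750 and 0.918 UMIs, and 0.613 (0.480 to 0.774) in the callus library. Median total UMIs were 7924 in immature and 3723 in mature intact cells, and 11056 and 3727 in callus cells. Where only cells with one side of the maturation genes at least 4 times the other were taken, the intact CPM ratio was 3.79. *Pi16* thus took a larger share of a smaller UMI total in mature neutrophils, and its number per cell was lower there in the callus library, while the interval of the intact ratio held 1 with and without the cells that carried fibroblast UMIs.

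Neutrophils ordered by maturation genes and cut into 5 groups of equal size gave the same picture. In the intact library *Pi16* stood at 67.5, 113, 216, 183 and 424 CPM from the least to the most mature group, and at 69.8, 108, 165, 169 and 251 CPM without cells carrying fibroblast UMIs. In the callus library it stood at 72.9, 65.7, 60.7, 93.2 and 128 CPM, and at 58.9, 61.4, 68.3, 95.4 and 122 CPM without them. Over the same 5 groups *Lcn2*, a secondary granule gene outside the gate, went from 16865 to 2390 CPM in the intact library, while *Il1b*, a cytokine gene of mature neutrophils, went from 1.32 to 6112 CPM. Per cell, callus values without fibroblast UMIs went from 1.14 UMIs (0.967 to 1.33) in the least mature to 0.576 (0.459 to 0.715) in the most mature group, and the intact values were 0.862 (0.640 to 1.14) at both ends.

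**Figure D3:**
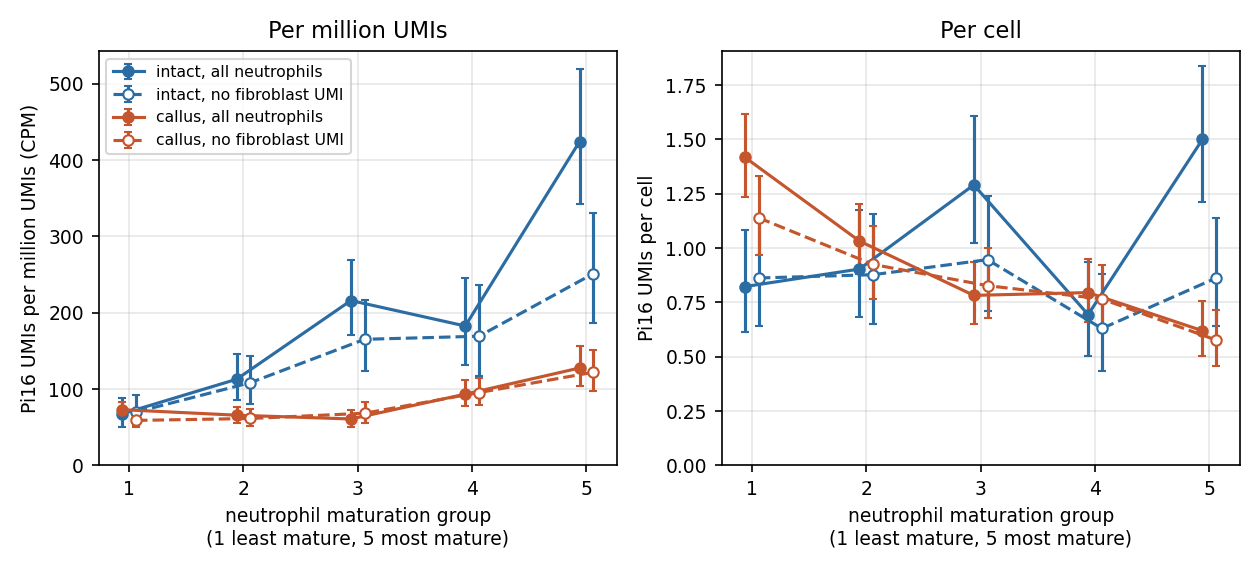
*Pi16* in 5 equal groups of neutrophils ordered by *Camp*, *Ngp* and *Ltf* against *Retnlg*, *Cxcr2* and *Csf3r* UMIs, in CPM (left) and UMIs per cell (right), with exact 95% Poisson intervals, for all neutrophils (filled) and those without a fibroblast marker UMI (open). The CPM is highest in the most mature group of both libraries (424 and 128 CPM, or 251 and 122 CPM without cells carrying fibroblast UMIs). The level per cell is lowest in the most mature group of the callus library.

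In CPM, *Pi16* differed in direction from the secondary granule genes of neutrophils, whereas per cell its callus ratio of 0.608 had the same direction as theirs. Of 5369 genes with at least 20 UMIs in each library, summed over mature and immature cells, 42.2% were higher and 37% lower in mature cells of both libraries in CPM, and 7.8% were higher and 85.2% lower in UMIs per cell. All 5 genes listed with the secondary granules outside the gate were lower in mature than in immature cells of both libraries (median ratio 0.333 and 0.326). Among them were *Lcn2* (0.307 and 0.316) and *Chil3*. The list also holds *Ltb4r1* (0.333 and 0.371), which encodes a leukotriene B4 receptor and not a granule protein, and which sets the intact median. Of 4 primary granule genes, 3 were lower in both. Of 5 tertiary granule genes, 3 were higher in both, with *Mmp9*, a gelatinase, at 2.37 and 4.31 and *Cybb*, a subunit of the NADPH oxidase, at 0.293 in both. Of 12 mature neutrophil genes outside the gate, 11 were higher in both (median 4.81 and 9.60), among them *Il1b* and *Cxcl2*. The *Pi16* ratios of 2.37 and 1.73 lay above the granule lists' secondary genes and below the median of this last list. Of the 9 fibroblast comparator genes, 7 in the intact (median 1.55) and 8 in the callus library (median 1.56) were also higher in mature cells in CPM, and their part in the *Pi16* ratios was not tested. The *Pi16* ratios without the cells that carried fibroblast UMIs were 2.00 and 1.78. Callus mature neutrophils also carried primary granule transcripts (*Elane* at 1479 CPM, against 0 UMIs in the intact library), whose part in these values was not tested.

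Of the 13 CAP superfamily genes, 4 had enough UMIs for a ratio in neutrophils, and *Pi16* and the 3 others were higher in mature cells of both libraries in CPM, against 42.2% of all genes. Per cell, only *Glipr1* of these 4 was higher in both (1.97 and 2.29), and *Glipr2* (0.473 and 0.596) and *Crispld2* (0.508 and 0.670) were lower. Of all genes, 7.8% were higher and 85.2% lower in both per cell. *Glipr1*, which was at or near 0 in fibroblasts (0 and 4.84 CPM), had ratios of 4.70 and 6.50. *Glipr2*, a Golgi-associated member, had ratios of 1.13 and 1.69 and was present in fibroblasts at 91.2 and 68.3 CPM. *Crispld2*, a secreted member, had ratios of 1.21 and 1.91 and stood at 85.3 and 66.1 CPM in fibroblasts. *Crispld1* was a fibroblast transcript only in these groups, at 76.6 and 53.2 CPM in fibroblasts and at most 0.228 CPM in neutrophils and 0.234 CPM in monocytes.

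Of 9 genes listed for GPI-anchored proteins, 8 had a ratio in the intact and 9 in the callus library. In CPM, 5 were higher and 2 lower in mature cells of both, against 42.2% and 37% of all genes. Per cell, 1 was higher and 4 were lower in both, against 7.8% and 85.2% of all genes. *Fcgr3* (2.56 and 2.68 in CPM), among the 5 higher, encodes a receptor that spans the membrane in the mouse, so it does not belong to this class. *Ly6g* and *Cd177*, 2 neutrophil antigens, were the lower ones in CPM. Of 7 matrix protease and inhibitor genes, 5 were higher in mature cells of both in CPM, against the same 42.2%. Per cell, 1 was higher in both, against 7.8% of all genes. It was *Timp2*, an inhibitor of metalloproteinases, at 3.35 and 5.29 in CPM and 1.40 and 1.86 per cell. *Timp2* was also abundant in fibroblasts, at 2684 and 2286 CPM. *Mmp2* and *Mmp14*, a further pair of the 5, rest on 5 and 3 intact mature UMIs and stood at 736 and 217 CPM in intact fibroblasts.

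*Crispld2* and *Pdlim7* were, beside *Pi16*, among the genes with at least 50 CPM in both mature neutrophils and fibroblasts of both libraries that were also at least 3-fold above B, T, NK, monocyte, macrophage and progenitor cells. *Crispld2* stood at 68.2 and 93.4 CPM in mature neutrophils. *Pdlim7*, a PDZ and LIM domain adaptor, stood at 90.4 and 87.2 CPM in mature neutrophils and 59.0 and 53.8 CPM in fibroblasts. Both were still named after neutrophils with fibroblast UMIs had been left out. *Pi16* itself then no longer met the rule, at 196 CPM in intact mature neutrophils against 80.7 CPM in intact monocytes. *Pi16* had a fibroblast level (2682 and 1413 CPM) more than 2 times that of mature neutrophils (266 and 123 CPM) in both libraries, and these 2 genes did not.

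Over 26 type and library groups of at least 20 cells, the pattern of *Pi16* was most like that of *Mfap5*, *Dpt*, *Cd248*, *Igfbp6* and *Camkk1* (Pearson r of log2(CPM + 10) from 0.87 to 0.85), followed by *Tnfaip6*, *Tnxb*, *Gsn*, *Crispld2* and *Col14a1* (down to 0.84). *Mfap5* and *Tnxb* encode matrix proteins, and *Tnfaip6* a hyaluronan-binding protein. After neutrophils with fibroblast UMIs were left out, *Camkk1*, *Gsn*, *Tnfaip6*, *C3* and *Crispld2* came first (0.84 to 0.83), and the matrix genes *Mfap5* and *Dpt* were no longer among the first 10. The points share 2 libraries and large differences in depth, so these values only describe.

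Over the 10 neutrophil maturation groups of both libraries, *Tnfaip6*, *Sgpl1*, *Aff4*, *Osgin1*, *Ubap1*, *Mgll*, *Grk2*, *Epc1*, *Por* and *R3hdm2* were most like *Pi16* (r from 0.97 to 0.94). Without cells carrying fibroblast UMIs the first 10 were *Sik1*, *Aff4*, *Pacs1*, *Ubap1*, *Nudt4*, *Por*, *Btg1*, *Gm31814*, *Ppp1r3b* and *Eif1* (0.98 to 0.97), so that 3 names (*Aff4*, *Ubap1*, *Por*) stood in both lists. *Sik1* is a salt-inducible kinase and *Btg1* an antiproliferative gene, and both were higher in mature cells of both libraries (*Sik1* at 249 against 66.4 CPM in the intact library).

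Within the 508 fibroblasts, ranked together over both libraries, *Pi16* went with the adventitial genes. Some genes named below differed between intact and callus fibroblasts, such as *Smpd3* (1236 and 260 CPM) and *Mgp* (256 and 1346 CPM). Others differed little, such as *Igfbp5* (3907 and 3642 CPM). The part of the library difference in these correlations was not tested. The 10 genes with the highest Spearman correlation were *Anxa3* (0.70), *Igfbp5* (0.67), *Sema3c* (0.67), *Timp2* (0.64), *Efhd1* (0.61), *Efemp1* (0.60), *Smpd3* (0.59), *Mfap5* (0.57), *Cd248* (0.56) and *Emilin2* (0.54), out of 7254 genes found in at least 10% of the cells. *Sema3c* and *Efemp1* encode a secreted guidance cue and a matrix glycoprotein, and *Timp2* was named above. The lowest were *Igfbp7* (−0.68), *Hmcn2* (−0.64), *Bgn* (−0.61), *Col15a1* (−0.59) and *Mgp* (−0.58), of which *Col15a1* and *Hmcn2* mark parenchymal fibroblasts.

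By kind, set from 3 or more markers that exclude *Pi16*, the 216 intact and 146 callus adventitial fibroblasts stood at 3381 CPM (3289 to 3474) and 2012 CPM (1932 to 2094), with 94.4% and 94.5% of cells positive. Inflammatory fibroblasts (*Ptx3*, *Has1*, *Tnfaip6*) stood at 2267 CPM (2028 to 2526, 17 cells) and 861 CPM (688 to 1065, 14 cells). Parenchymal fibroblasts stood at 109 CPM (77.7 to 149, 49 cells) and 411 CPM (331 to 505, 25 cells). Tendon-like fibroblasts (*Thbs4*, *Cilp*) stood at 187 CPM (68.6 to 407, 5 cells) and 167 CPM (127 to 217, 31 cells). Adventitial cells made up 74.7% of intact and 66.7% of callus fibroblasts, and tendon-like cells 1.73% and 14.2%.

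The callus library had less *Pi16* than the intact library in each main type, in CPM. The ratio of callus over intact was 0.527 (0.503 to 0.552) in fibroblasts, 0.636 (0.536 to 0.759) in immature neutrophils, 0.464 (0.357 to 0.600) in mature neutrophils and 0.487 (0.352 to 0.684) in monocytes. Among genes with at least 20 UMIs in the pair, 8.79%, 7.82%, 7.54% and 9.53% were at least 1.5-fold lower in these 4 types, and 13 of 4333 genes (0.300%) were so in all 4. *Pi16* was among the 13. Because the gene was picked with these values in view, nothing is read from that count. The neutrophil groups of the 2 libraries also differed in primary granule transcripts. *Elane* stood at 137 CPM in intact and 2572 CPM in callus immature neutrophils. In mature neutrophils it had 0 UMIs in the intact library and stood at 1479 CPM in the callus library. The part of this difference in the neutrophil ratios was not tested. In progenitors the *Pi16* ratio was 0.605 (0.264 to 1.71). B-lineage cells, with 12 intact and 11 callus *Pi16* UMIs, gave 0.240 (0.0960 to 0.594) in CPM and 0.415 (0.166 to 1.03) per cell. The source of these few UMIs was not tested.

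Per cell the difference between the libraries was smaller, and in immature neutrophils it was within counting error. The ratio of UMIs per cell was 0.631 (0.602 to 0.661) in fibroblasts, 0.969 (0.816 to 1.16) in immature neutrophils, 0.591 (0.455 to 0.765) in mature neutrophils and 0.536 (0.388 to 0.752) in monocytes. In mature neutrophils without fibroblast UMIs it was 0.611 (0.452 to 0.823) in CPM and 0.752 (0.556 to 1.01) per cell. Immature neutrophils thus held about the same number of *Pi16* UMIs in both libraries, in cells of 7924 and 11056 median UMIs, and callus mature neutrophils without fibroblast UMIs had an interval that reached 1. With the neutrophil gate at 10% of UMIs, the CPM ratio of mature neutrophils was 0.726.

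By fibroblast kind the ratio was 0.595 (0.567 to 0.625) in adventitial and 0.380 (0.296 to 0.484) in inflammatory cells, 0.895 (0.387 to 2.54) in tendon-like cells and 3.77 (2.56 to 5.63) in parenchymal cells. The lower callus level was therefore present within the adventitial kind itself, and the parenchymal kind differed the other way, on 39 UMIs in 14 of 49 intact and 91 UMIs in 12 of 25 callus cells. Cells of 1 kind are not replicates, and 1 callus parenchymal cell alone held 28 UMIs.

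**Figure D4:**
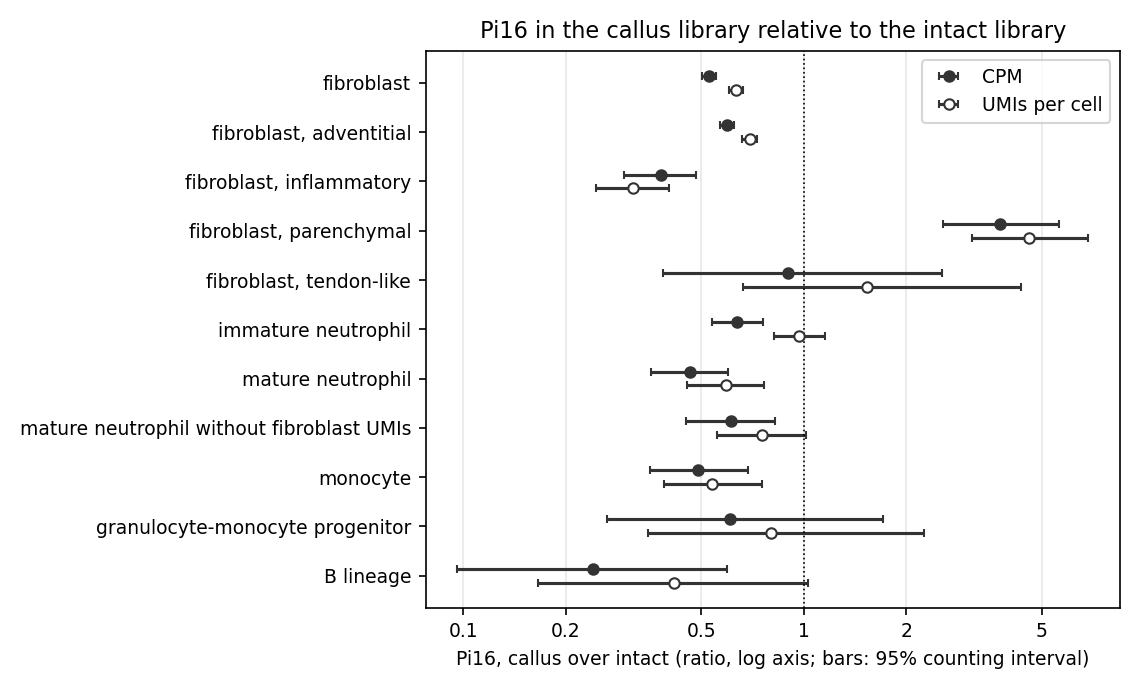
Ratio of *Pi16* in the callus over the intact library on a log axis, in CPM (filled) and UMIs per cell (open), with exact 95% intervals for counting error, by gated type and fibroblast kind. Fibroblasts, mature neutrophils and monocytes lie below 1 on both scales (0.527, 0.464 and 0.487 in CPM), immature neutrophils reach 1 per cell (0.969), and parenchymal fibroblasts lie above 1 (3.77).

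The 3 nearest protein-coding genes on each side were counted in the same groups. *Mtch1*, whose gene ends 1479 bases downstream of *Pi16* on the other strand, encodes a mitochondrial outer membrane protein. Like *Pi16*, it was higher in fibroblasts (314 and 317 CPM) than in mature neutrophils (39.2 and 51.1 CPM). Unlike *Pi16*, it was higher in monocytes (156 and 141 CPM) than in mature neutrophils. *BC004004*, 3615 bases upstream, stood between 17.1 and 43.3 CPM in fibroblasts, neutrophils and monocytes of both libraries. *Pim1*, a kinase gene 160160 bases downstream, was higher in mature neutrophils (795 and 615 CPM) than in fibroblasts (125 and 160 CPM). *Cpne5* held at most 1 UMI in fibroblasts of either library.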

How the data were processed

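Tissue was digested with collagenase, sorted for tdTomato and processed with the 10X Chromium 3′ kit V3. The authors ran Cell Ranger (version 6.0.0, genome build mm10) and deposited raw, unnormalized UMI counts for each gene in each cell. *Pi16*, the marker gates and the gene lists were chosen with earlier results of these data known. The cell filter asked for 500 or more genes and no more than 10% mitochondrial UMIs. Neutrophils were gated at 3% of UMIs in *S100a8* and *S100a9* and called immature or mature by whether *Camp*, *Ngp* and *Ltf* or *Retnlg*, *Cxcr2* and *Csf3r* had more UMIs. Other cells took the list with the largest share of its markers detected (at least 3), and fibroblast-gated cells with 3 osteoblast markers were called osteoblasts, a rule set after the data were seen. Doublets were not removed.

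Counts were summed per type and library and scaled to CPM with exact Poisson intervals. Ratios have exact conditional binomial and shares exact Clopper-Pearson intervals. A count of 0 was given the limit of 3 counts. Likeness rankings used genes with at least 100 UMIs, and the 10 highest were named. Of the genes high in both mature neutrophils and fibroblasts, 1 is not reported here. Ratios over all genes had 0.5 UMIs added. The gene-wise ratios and intervals were tested on simulated data. Alternative filters, gates, maturation rules, thinning depths and comparators were tried. Positions are from GENCODE on GRCm38. Tools were python 3.11.15, numpy 2.4.6, scipy 1.17.1, pandas 2.3.3 and scanpy 1.11.5.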

Additional observations from a re-analysis of the deposited data

Results flagged for a closer look

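Barcodes removed by the cell filter also held *Pi16*. In the intact library, 48 UMIs lay in 33 of 665 removed barcodes, and in the callus library 54 UMIs lay in 21 of 692. These barcodes belong to no comparison above and stood at 10.4 and 22.3 CPM.

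Adventitial and parenchymal fibroblasts differed in opposite directions between the libraries, with a callus over intact ratio of 0.595 in adventitial and 3.77 in parenchymal cells. The difference was not tested, because each kind is 1 group of cells in 1 library per condition.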

How the results depend on the processing

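Of 197 values under alternative settings, 148 stayed within the counting interval of the reported value, 47 moved out of it and 2 turned direction. The 2 are mature over immature neutrophils as UMIs per cell without scaling, at 0.996 in the intact and 0.608 in the callus library, where the totals per cell of the stages differ. The 148 include values that a setting could not change. Leaving out neutrophils with fibroblast UMIs, for example, does not touch fibroblasts, and the number of detected markers does not touch neutrophils. The count is therefore no measure of robustness.

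Taking the mean over cells of each cell's CPM moved intact fibroblasts to 2969 CPM, callus fibroblasts to 1743 CPM and callus immature neutrophils to 86.5 CPM, and callus over intact to 0.587 in fibroblasts and 0.617 in mature neutrophils. Without the osteoblast rule, callus fibroblasts stood at 1101 CPM and their callus over intact ratio at 0.411. Intact mature neutrophils went to 205 CPM with the gate at 10% of UMIs and to 196 CPM without cells carrying fibroblast UMIs. Without the 3 cells that Scrublet called doublets in that library, 149 of the 150 mature neutrophils remained, at 203 CPM. The mature over immature ratio of the intact library went to 1.83 with the gate at 10% and to 3.79 with one side at least 4 times the other. Callus over intact in mature neutrophils went to 0.726 with the gate at 10% and 0.611 without cells carrying fibroblast UMIs. As UMIs per cell, callus over intact was 0.631 in fibroblasts and 0.969 in immature neutrophils. The cause of these shifts was not tested.

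Shares after thinning moved by construction. Counting cells as positive from 2 UMIs gave, for intact and callus in turn, 66.9% and 52.5% in fibroblasts, 5.67% and 1.99% in neutrophils, 3.17% and 0.242% in monocytes, and 0% and 0.177% in B-lineage cells. Thinning to 1000 UMIs gave 69.0% and 57.6% in fibroblasts, 14.2% and 9.24% in neutrophils, 3.85% in callus monocytes and 1.86% in intact B-lineage cells. Without thinning, the shares were 82.7% and 78.1%, 56.5% and 54.8%, and 47.7% and 31.7% in fibroblasts, neutrophils and monocytes.

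A set of 4 comparators that no cell type gate uses was added after the data were seen. They had few UMIs in monocytes and B-lineage cells. Per 100 of their UMIs, *Pi16* stood at 24.9 and 16.2 in fibroblasts, 135 and 192 in neutrophils and 1633 and 1400 in monocytes. In B-lineage cells it stood at 70.6 and 55.0. Without *Dpp4* it stood at 237 in callus monocytes and 38.7 and 2.89 in B-lineage cells. The osteoblast rule, *Dpp4* and UMIs per cell between libraries were also added after the data were seen. Scrublet called 3 intact and 4 callus cells, so doublets cannot be taken as removed. No paired analysis was possible because each condition is 1 library and no test was run.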
